A study of Mus musculus with 6 samples.

Results

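Myeloid progenitors read growth signals from their surroundings through a small group of cytokine receptors, and 7 genes for chains of these receptors were followed here in leukemic cells of the I1DN mouse model of acute myeloid leukemia (AML). They were the shared β chain genes Csf2rb and Csf2rb2, the α chain genes Csf2ra and Il3ra, the granulocyte colony-stimulating factor (G-CSF) receptor gene Csf3r, and the interleukin-6 (IL-6) receptor genes Il6ra and Il6st. The genes were chosen by name as a receptor family, out of 54838 genes in the count table, with earlier results of these data known. All 7 had enough reads to be tested, among 11092 genes that did.

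RNA was compared between 3 samples from vehicle-treated mice and 3 from mice given AG636, an inhibitor of DHODH, the mitochondrial enzyme that makes orotate during de novo synthesis of pyrimidine nucleotides. AG636 was dosed by oral gavage at 100 mg/kg b.i.d. The length of dosing was 1 day or 4 days, since the sources differ on it. In both groups the leukemia was of C57BL/6 background and carried IDH1R132H, DNMT3AR882H and NrasG12D, introduced into fetal liver stem and progenitor cells by co-transduction, and it grew in sublethally irradiated Ptprca recipients. Transplants started from frozen cells of a moribund mouse, so the samples are hosts of a passaged leukemia and not separate leukemias, and irradiated hosts keep blood cells of their own. The cells came from bone marrow and spleen and were sorted for cKit with little or no CD11b (named cKit+CD11b- in one place and cKit-high CD11b-low in another). The age of the mice is not given in the sources used here. Libraries held 4634963 to 7906589 counts. The question asked of the receptor genes was whether their transcripts changed with inhibition of pyrimidine synthesis.

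The receptors work by assembling chains. IL-3, granulocyte-macrophage colony-stimulating factor (GM-CSF) and IL-5 each bind an α chain of their own, which then joins a β chain that carries the JAK kinase and signals through STAT5 and the RAS pathway. Csf2rb encodes the β chain common to all 3 cytokines. Csf2rb2 encodes a second β chain found in the mouse that serves IL-3 alone, and it lies beside Csf2rb as a duplicated copy. Csf2ra and Il3ra encode the α chains for GM-CSF and IL-3. The G-CSF receptor pairs with itself and drives the production of neutrophils, while IL-6 binds the chain encoded by Il6ra and signals through gp130, the product of Il6st, mainly to STAT3. In myeloid cells these receptors sustain survival and division, and the G-CSF receptor in particular becomes more abundant as progenitors mature toward neutrophils.

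Promoter windows are shown for the 3 genes that were higher with AG636 and have a window in the RefSeq table, and for Csf3r, which did not pass the test. Each window runs from 250 bases before to 50 bases after the annotated start in RefSeq build GRCm38.p6, and it is written 5′ to 3′ on the strand of the gene. Capitals mark GAGGAA, a core of the binding motif of PU.1 (a transcription factor of myeloid receptor genes), on either strand, so that TTCCTC is the same motif on the other strand. In Csf2rb2 they also mark 1 match to the STAT motif TTCNNNGAA. The Csf2rb2 window is chr15:78305672-78305971 on the minus strand, the Csf2ra window chr19:61228369-61228668 on the minus strand, the Il6ra window chr3:89913147-89913446 on the minus strand and the Csf3r window chr4:126024409-126024708 on the plus strand.
Csf2rb2: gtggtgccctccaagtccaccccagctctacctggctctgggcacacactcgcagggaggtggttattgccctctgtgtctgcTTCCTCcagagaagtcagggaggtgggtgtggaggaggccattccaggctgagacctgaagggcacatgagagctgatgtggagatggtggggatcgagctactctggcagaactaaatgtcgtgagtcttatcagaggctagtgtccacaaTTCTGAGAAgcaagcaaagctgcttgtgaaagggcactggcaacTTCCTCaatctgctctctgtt
Csf2ra: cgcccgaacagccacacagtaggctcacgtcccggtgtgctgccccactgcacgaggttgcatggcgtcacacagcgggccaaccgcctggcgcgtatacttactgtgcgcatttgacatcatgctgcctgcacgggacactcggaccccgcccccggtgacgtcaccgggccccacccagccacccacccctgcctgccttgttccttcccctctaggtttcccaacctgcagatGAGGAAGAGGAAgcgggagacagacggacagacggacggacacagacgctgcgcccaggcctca
Il6ra: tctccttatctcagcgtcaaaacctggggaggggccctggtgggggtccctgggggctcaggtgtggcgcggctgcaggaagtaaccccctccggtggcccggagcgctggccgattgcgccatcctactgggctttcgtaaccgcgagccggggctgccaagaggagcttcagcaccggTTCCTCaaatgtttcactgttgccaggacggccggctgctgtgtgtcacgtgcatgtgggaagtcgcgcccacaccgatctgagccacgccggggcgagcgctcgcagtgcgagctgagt
Csf3r: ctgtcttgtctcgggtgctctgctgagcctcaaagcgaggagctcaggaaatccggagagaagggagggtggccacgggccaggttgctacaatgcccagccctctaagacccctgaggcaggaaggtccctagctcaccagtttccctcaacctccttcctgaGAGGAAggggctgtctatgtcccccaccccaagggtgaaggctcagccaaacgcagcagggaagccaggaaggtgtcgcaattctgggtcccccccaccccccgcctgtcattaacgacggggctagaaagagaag

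The PU.1 letters occurred in 4 of the 6 members' windows found in the table, with 2 matches each in Csf2rb2 and Csf2ra and 1 each in Il6ra and Csf3r, and in 28.3% of 32851 windows of all genes. In Csf2ra the matches were tandem, at positions 237 and 243 counted from the 5′ end of the window, and did not overlap. The STAT letters were found in Csf2rb2 alone, at position 236, against 8.30% of all windows. A C/EBP motif, TTGCNNAA, was found in Il3ra alone, against 10.8% of all windows, and the RUNX motif TGTGGT in none of the 6, against 16.8%. The Il6st window held none of these 4 motifs. Windows with the PU.1 letters thus belonged both to genes that were higher with AG636 and to Csf3r. The members' windows were between 55.0% and 74.3% G and C, against a median of 52.7% over all windows. Csf2rb itself is not in the RefSeq table.

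With AG636, 4 of the 7 receptor genes were higher, namely Csf2rb, Csf2rb2, Csf2ra and Il6ra, with fitted folds between 1.78 and 2.85. The other 3, Il3ra, Il6st and Csf3r, did not pass the threshold, an adjusted p under 0.05 in the quasi-likelihood test of edgeR, with p adjusted by Benjamini-Hochberg over all genes tested. The share called higher was 57.1% of the members, beside 10.3% of all genes tested that were called higher, 11.0% that were called lower and 21.3% called in either direction. As the members were chosen with earlier results of these data known, these shares are descriptions only. No member was called lower by edgeR, DESeq2 or limma-voom, and 0 had an unadjusted p under 0.05 in that direction. The median log2 fold change of the members was 0.83, against 0.03 over all genes tested. In 5 of the 7 genes every AG636 sample lay above every vehicle sample, as it did in 20.5% of all genes tested. The count of members called higher fell to 2 (Csf2rb2 and Il6ra) without AG636 replicate 3. Where a log2 fold change is given below it is AG636 against vehicle from the edgeR model, with its standard error (SE), and CPM relate the count of a gene to the TMM-scaled total of its library.

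**Figure D1:**
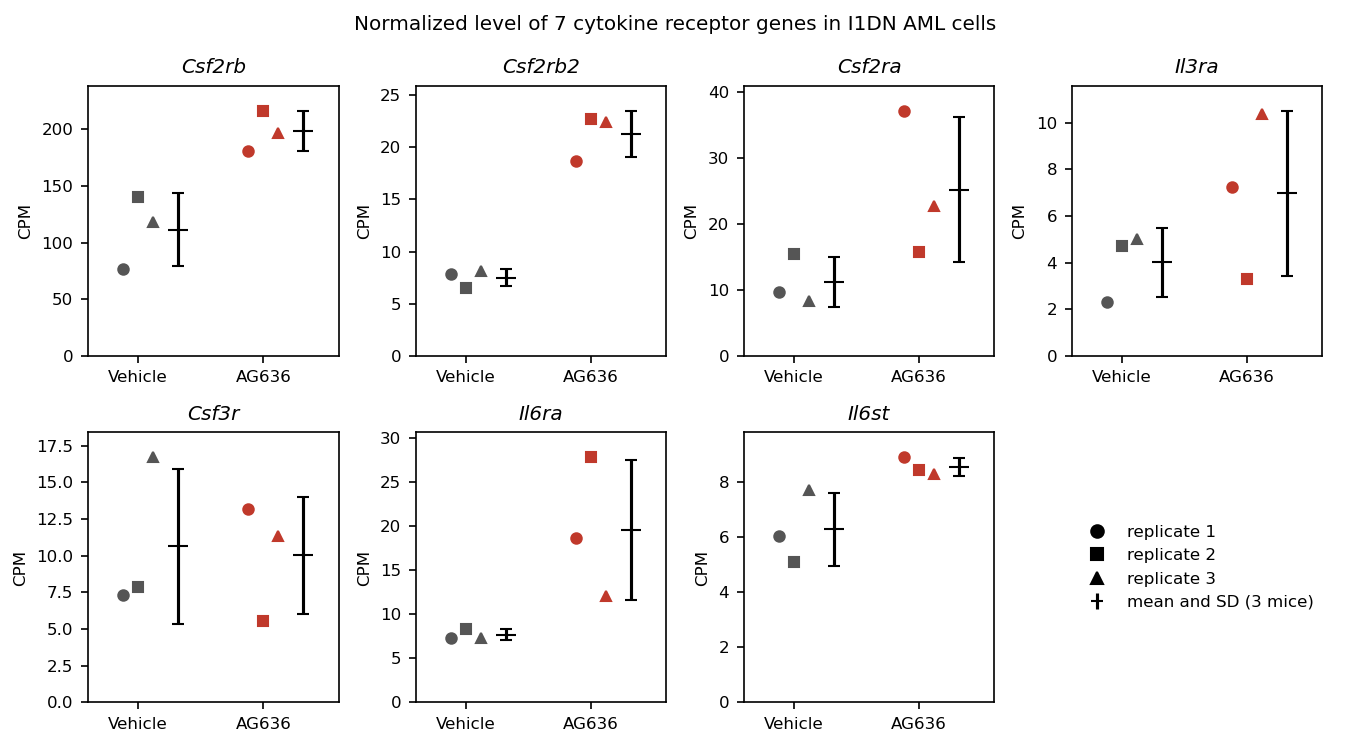
Level of each receptor gene in CPM (y axes, from 0, with a separate scale for each gene) in 3 vehicle samples (grey) and 3 AG636 samples (red); marker shapes give the replicate number and black bars the mean and SD of each group. The groups were apart for Csf2rb2, at 6.54 to 8.15 against 18.7 to 22.7 CPM, and for Il6ra, at 7.31 to 8.37 against 12.1 to 27.8 CPM, while the groups overlapped for Csf3r and Il3ra.

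Csf2rb (ENSMUSG00000071713, chr15:78325752-78353847, plus strand, mm10) encodes the common β chain and was by far the most abundant of the 7 transcripts. Its level was 76.3, 140.2 and 117.9 CPM in vehicle replicates 1 to 3, and 181.2, 216.5 and 196.9 CPM in AG636 replicates 1 to 3. Every AG636 sample was above every vehicle sample, and vehicle replicate 1 was the lowest of the 6. The means were 111.5 ± 32.4 and 198 ± 17.7 CPM (SD, n = 3 each), resting on 428 to 1072 counts per sample. The log2 fold change was 0.83 (SE 0.20, 95% interval 0.39 to 1.27, 1.78-fold, Benjamini-Hochberg adjusted p = 0.0180, edgeR quasi-likelihood). The coefficient of variation between vehicle samples was 29.1%, against 4.03% from counting error alone, so that depth was not what limited this gene. The exact two-sided permutation test of 3 against 3 gave p = 0.1, the smallest it can give, as for every gene below whose groups did not overlap. Without AG636 replicate 3 the log2 fold change stayed at 0.83 and the adjusted p was 0.0553 (edgeR).

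Csf2rb2 (ENSMUSG00000071714, chr15:78282507-78305721, minus strand), the gene of the IL-3-specific β chain, had the largest fold of the 7. It stood at 7.84, 6.54 and 8.15 CPM in the vehicle samples and at 18.7, 22.7 and 22.5 CPM in the AG636 samples. The groups were far apart, with the lowest AG636 sample more than 10 CPM above the highest vehicle sample. Mean levels were 7.51 ± 0.855 and 21.3 ± 2.24 CPM (SD, n = 3 each). The log2 fold change was 1.51 (SE 0.21, 95% interval 1.05 to 1.97, 2.85-fold, Benjamini-Hochberg adjusted p = 0.00320, edgeR quasi-likelihood), and Csf2rb2 ranked 37 by p among all genes that were higher. Counts were 39 to 50 per vehicle sample and 88 to 119 per AG636 sample, and the variation between vehicle samples (11.4%) was no larger than counting error (15.1%). The call held under each of the 13 alternatives tried at the same threshold, with log2 fold changes of 1.40 to 1.60.

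The β chain genes are duplicated copies, and reads from shared sequence could be split between them. Over their longest transcripts, 518 stretches of 75 bases, the read length of these libraries, were identical, which is 10.7% of such stretches in Csf2rb and 11.1% in Csf2rb2. The last shared stretch ended 1710 bases before the end of the Csf2rb transcript and 1650 bases before that of Csf2rb2. The libraries read the ends of transcripts, and in the last 500 bases 0 of 426 stretches of either gene were shared with any other gene. Added together, the β chain genes were at 84.2, 146.8 and 126.0 CPM with vehicle and 199.9, 239.2 and 219.3 CPM with AG636. The sum was 119 ± 31.9 against 219 ± 19.7 CPM (SD, n = 3 each, exact permutation p = 0.1), with no overlap of the groups.

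Within that sum, Csf2rb2 supplied 9.32%, 4.46% and 6.47% of the counts in the vehicle samples, with 95% Wilson intervals of 7.02 to 12.3%, 3.40 to 5.83% and 4.77 to 8.72%. In the AG636 samples it supplied 9.35%, 9.48% and 10.2%, with intervals of 7.65 to 11.4%, 7.93 to 11.3% and 8.63 to 12.1%. These intervals, like the detection floors, cover counting error only. Vehicle replicate 1 lay at the level of the AG636 samples, and the other vehicle samples were lower. The log2 ratio of Csf2rb2 to Csf2rb differed by 0.62 between the groups (exact permutation p = 0.2, adjusted p = 0.5 over the 5 ratios compared), and by 0.34 without vehicle replicate 2 and 0.91 without vehicle replicate 1. With 3 samples against 3 this test cannot go below 0.1, so it does not settle whether the folds of the β chain genes differ, and the groups overlapped.

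Csf2ra (ENSMUSG00000059326, chr19:61224402-61228418, minus strand) encodes the α chain that binds GM-CSF. Its level was 9.63, 15.4 and 8.36 CPM with vehicle and 37.2, 15.7 and 22.7 CPM with AG636. AG636 replicate 1 was the highest by a wide margin, and AG636 replicate 2 exceeded vehicle replicate 2 only narrowly. Means were 11.1 ± 3.77 and 25.2 ± 11.0 CPM (SD, n = 3 each), from 40 to 175 counts per sample. Csf2ra had a log2 fold change of 1.15 (SE 0.34, 95% interval 0.41 to 1.90, 2.22-fold, Benjamini-Hochberg adjusted p = 0.0361, edgeR quasi-likelihood). This call was the least stable of the 4. It was lost in limma-voom (log2 fold change 1.07, adjusted p = 0.0504). In edgeR it was lost without vehicle replicate 1 (1.03, adjusted p = 0.0977), vehicle replicate 3 (0.97, adjusted p = 0.0947), AG636 replicate 1 (0.76, adjusted p = 0.135) or AG636 replicate 3 (1.22, adjusted p = 0.0754).

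Il3ra (ENSMUSG00000068758, chr14:14346275-14356011, plus strand), the gene of the IL-3-binding α chain known as CD123, was measured on the fewest reads, 13 to 55 counts per sample. It was at 2.32, 4.71 and 5.01 CPM with vehicle and at 7.22, 3.30 and 10.4 CPM with AG636. AG636 replicates 1 and 3 were above all vehicle samples, but AG636 replicate 2 fell among them. Mean levels were 4.01 ± 1.48 and 6.97 ± 3.55 CPM (SD, n = 3 each). The log2 fold change was 0.80 (SE 0.44, 95% interval -0.18 to 1.78, edgeR adjusted p = 0.219), an interval that holds both no change and the change of Csf2ra. The exact permutation p was 0.3. Single samples moved the value, to 0.38 without AG636 replicate 3, 0.51 without vehicle replicate 1 and 1.13 without AG636 replicate 2 (edgeR adjusted p = 0.0604 for the last).

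The α chains were also set against the common β chain within each sample. The log2 ratio of Csf2ra to Csf2rb was -3.32 ± 0.43 with vehicle and -3.06 ± 0.75 with AG636 (SD, n = 3 each), a difference of 0.26 (exact permutation p = 0.6). That of Il3ra to Csf2rb was -4.80 ± 0.24 and -4.95 ± 0.92, a difference of -0.15 (exact permutation p = 0.9). Il3ra to Csf2ra differed by -0.41 (exact permutation p = 0.5). The groups overlapped in each of these ratios, and AG636 replicate 2 had the lowest Il3ra to Csf2rb ratio of all 6 samples. The first of them changed sign without AG636 replicate 1 (-0.13) and the second without AG636 replicate 2 (0.37).

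**Figure D2:**
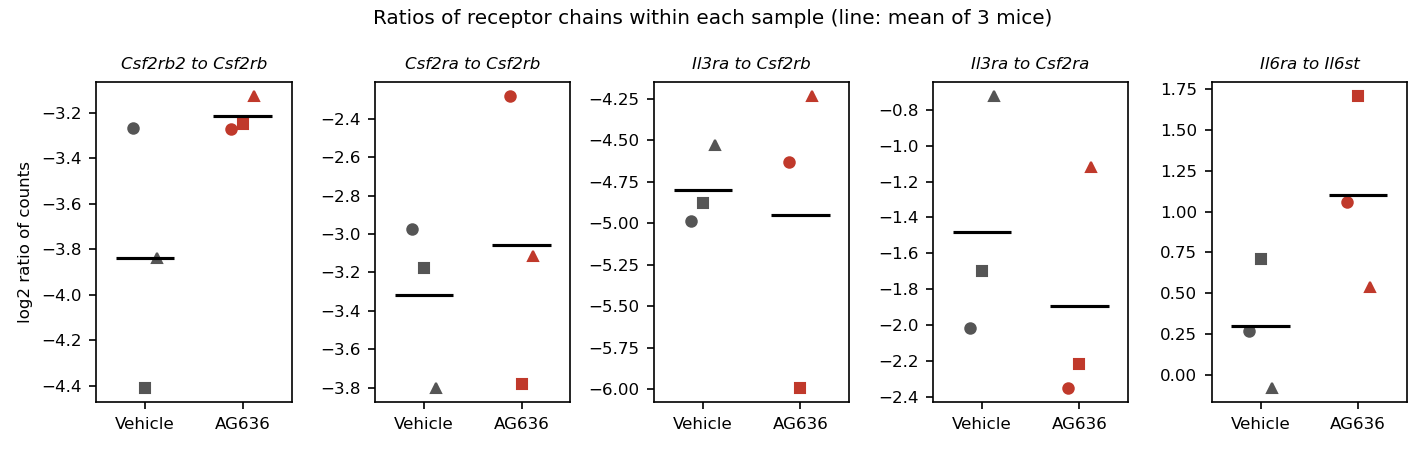
Log2 ratio of the counts of 2 receptor chains within each sample (y axes, a separate scale for each pair) in vehicle (grey) and AG636 samples (red), with the replicate number given by the marker shape (circle, square and triangle for 1, 2 and 3) and lines at the group means. The groups overlapped in all 5 panels, and the largest differences of means were 0.80 for Il6ra to Il6st and 0.62 for Csf2rb2 to Csf2rb.

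Csf3r (ENSMUSG00000028859, chr4:126024550-126044440, plus strand), the receptor gene for G-CSF, did not pass the test in either direction. Its level was 7.31, 7.85 and 16.7 CPM with vehicle and 13.2, 5.57 and 11.3 CPM with AG636. The groups overlapped, and the highest as well as the second lowest of the 6 values came from vehicle samples. Means were 10.6 ± 5.28 and 10.02 ± 3.96 CPM (SD, n = 3 each). The log2 fold change was -0.06 (SE 0.39, 95% interval -0.94 to 0.81, edgeR adjusted p = 0.922), and the exact permutation p was 0.9. In fold terms the interval ran from 0.522 to 1.75. It overlapped the intervals of Csf2rb (1.31 to 2.41), Csf2ra (1.33 to 3.73) and Il6ra (1.59 to 4.01). It did not overlap that of Csf2rb2 (2.07 to 3.91). A difference between Csf3r and these genes was not tested. The sign depended on single samples, with a log2 fold change of 0.38 without vehicle replicate 3 and 0.22 without AG636 replicate 2. In its last 500 bases, 4.46% of the 75-base stretches were identical to sequence in many other genes, the only member with such an end.

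Il6ra (ENSMUSG00000027947, chr3:89864059-89913196, minus strand) encodes the chain that binds IL-6. It was nearly even among the vehicle samples, at 7.31, 8.37 and 7.31 CPM, and more variable with AG636, at 18.7, 27.8 and 12.1 CPM. All 3 AG636 samples were above all vehicle samples, and AG636 replicate 2 was the highest. Means were 7.66 ± 0.612 and 19.5 ± 7.91 CPM (SD, n = 3 each), from 35 to 64 and 64 to 135 counts per sample. Il6ra had a log2 fold change of 1.34 (SE 0.30, 95% interval 0.67 to 2.01, 2.53-fold, Benjamini-Hochberg adjusted p = 0.0144, edgeR quasi-likelihood). The call held when each sample was left out in turn, with log2 fold changes of 0.99 to 1.59.

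Il6st (ENSMUSG00000021756, chr13:112464070-112510086, plus strand) encodes gp130, the signalling chain shared by the IL-6 family. It stood at 6.06, 5.10 and 7.73 CPM with vehicle and 8.92, 8.45 and 8.31 CPM with AG636. The AG636 samples were all above the vehicle samples, though by less than 1 CPM at the closest. Means were 6.30 ± 1.33 and 8.56 ± 0.321 CPM (SD, n = 3 each), on 34 to 44 counts per sample. Il6st had a log2 fold change of 0.46 (SE 0.26, 95% interval -0.12 to 1.03, edgeR adjusted p = 0.228). The variation between vehicle samples was 21.1%, against 16.5% from counting error. The log2 ratio of Il6ra to Il6st was 0.27, 0.71 and -0.08 with vehicle and 1.06, 1.71 and 0.54 with AG636. AG636 replicate 3 lay below vehicle replicate 2, and the difference of 0.80 between the groups had an exact permutation p of 0.2 (adjusted p = 0.5 over the 5 ratios). Leaving out AG636 replicate 2 brought that difference to 0.50, and leaving out AG636 replicate 3 to 1.08.

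**Figure D3:**
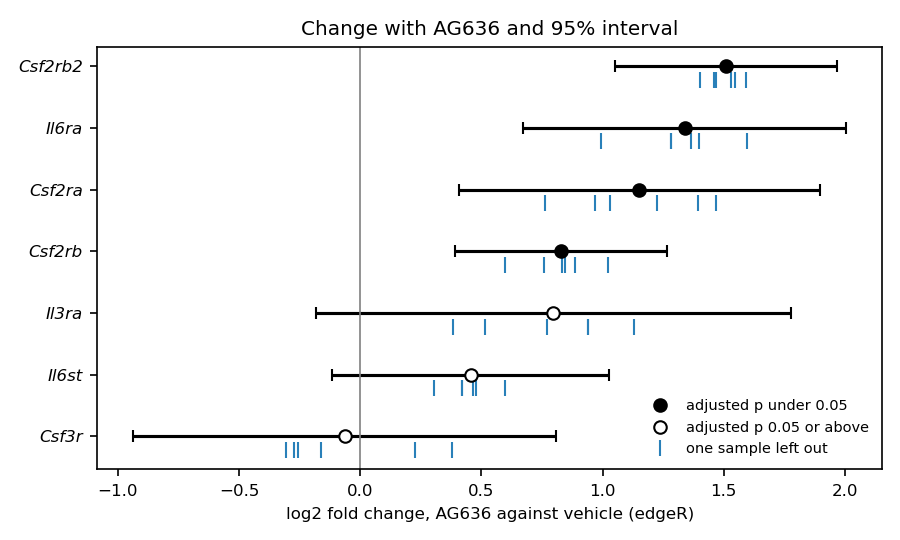
Log2 fold change of each receptor gene, AG636 against vehicle (x axis), with its 95% interval from the edgeR model; filled points have an adjusted p under 0.05, open points do not, and blue ticks under each point are the values with 1 sample left out. The 4 called genes run from 0.83 (Csf2rb) to 1.51 (Csf2rb2), and the ticks of Csf3r lie on both sides of 0.

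Levels of different genes were compared per kilobase of exon. In vehicle samples Csf2rb was first (15.3 ± 4.46 CPM per kilobase, SD, n = 3), followed by Csf2ra (6.02 ± 2.04), Csf3r (2.94 ± 1.46), Csf2rb2 (1.58 ± 0.180), Il3ra (1.35 ± 0.498), Il6ra (0.887 ± 0.0708) and Il6st (0.567 ± 0.120). Csf2rb was clear of Csf2ra in all samples. Csf2ra and Csf3r overlapped, as did Csf2rb2 with Il3ra and Il3ra with Il6ra, while Csf3r was clear of Csf2rb2, and Il6ra of Il6st. With AG636 the order on the same scale was Csf2rb (27.2 ± 2.43), Csf2ra (13.6 ± 5.93), Csf2rb2 (4.49 ± 0.473), Csf3r (2.78 ± 1.10), Il3ra (2.35 ± 1.20), Il6ra (2.26 ± 0.916) and Il6st (0.771 ± 0.0289). Here Csf2rb2 stood above Csf3r, the reverse of their order with vehicle on this scale, while in CPM they overlapped with vehicle (6.54 to 8.15 and 7.31 to 16.7 CPM). Csf3r overlapped with Il3ra and Il3ra with Il6ra. End-tag libraries yield reads from the end of a transcript whatever its length, so division by length can set long transcripts too low. On CPM alone Csf2rb was still first in both groups, at the 82.2 percentile of genes tested in vehicle samples, and Il3ra rather than Il6st was last, at the 11.2 percentile.

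The genes whose pattern over the 6 samples was most like that of each member were found by Pearson's correlation of log2 CPM over all genes tested. The 6 samples share the group difference, and the highest of 11092 values over 6 points is high whatever the genes are, so these are descriptions without a test. Csf2rb was closest to Extl2 (r = 0.998), Nedd9 (0.997) and Dnm2 (0.994). Csf2rb2 was closest to Rap2b (0.999), Tspyl3 (0.995) and BC055308 (0.994), and Csf2ra to Syne1 (0.996), Ino80d (0.994) and Atp6v1f (0.989). Il3ra was closest to Cebpa, the gene of a transcription factor of granulocyte commitment (0.994), then to Fzd2 (0.991) and Plxnd1 (0.991). Il6ra was closest to Gm44829 (0.992), to Camp, which encodes a granule protein of neutrophils (0.989), and to Fam174a (0.989). Csf3r was closest to Ets2 (0.988), Tnfaip3 (0.986) and Pde4dip (0.983), none of which passed the test, and Il6st to Bcl10 (0.997), Apaf1 (0.994) and Serpini1 (0.993).

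The rest of the pathway was read from lists of 103 genes, hand-written with earlier results of these data known, and 86 were tested. In these lists 18 genes were called higher (20.9%) and 2 lower (2.33%), beside 10.3% and 11.0% of all genes tested, with a median log2 fold change of 0.39 against 0.03. The count called higher was 9 without vehicle replicate 1, 8 without vehicle replicate 2 and 7 without AG636 replicate 3. Among ligands, Csf3, Csf2, Il3 and Il5 had 0 counts in all samples, against a floor of 3 counts that corresponds to 0.392 to 0.637 CPM. Il6, Il11 and Lif were too low to test, and Osm, a ligand of the gp130 family, had a log2 fold change of 0.32 (edgeR adjusted p = 0.607). The sorted cells thus held no detectable transcripts of the cytokines that bind the β chain receptors.

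Among 7 other growth factor receptors tested, 3 were higher in edgeR, namely Il5ra (1.42, adjusted p = 0.0284), which encodes the third α chain that joins the common β chain, Tek (1.33, adjusted p = 0.0248) and Igf1r (0.64, adjusted p = 0.0115). Il5ra was at 1.07 to 1.70 CPM with vehicle and 2.97 to 4.74 CPM with AG636, with no overlap. Its values rest on few reads, 87 counts over all samples together. Kit, the stem cell factor receptor used in the sort, had a log2 fold change of 0.15 (edgeR adjusted p = 0.550), and Csf1r, the receptor for the macrophage growth factor, one of 0.60 (edgeR adjusted p = 0.188). Of 17 further cytokine receptors, 6 were higher and 1 lower in edgeR. Those that rose were Il1r1 (1.53, adjusted p = 0.00880), Il21r (1.02, adjusted p = 0.0139), Il10ra (1.92, adjusted p = 0.0194), Tnfrsf1b (0.81, adjusted p = 0.0202), Il18r1 (1.66, adjusted p = 0.0296) and Ifnar2 (0.48, adjusted p = 0.0411). Ifngr1, a chain of the interferon-γ receptor, fell by 0.60 on the log2 scale (edgeR adjusted p = 0.0193). Il11ra1, the only other gp130 partner tested, had a log2 fold change of 0.53 and did not pass in edgeR, DESeq2 or limma-voom (edgeR adjusted p = 0.0980).

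Downstream of the receptors, 1 of 11 JAK and STAT genes was higher, near the 10.3% of all genes tested that were called higher. It was Stat3 (0.73, edgeR adjusted p = 0.0135), whose product is the main STAT of the IL-6 and G-CSF receptors. Of 16 adaptors and proximal kinases, Cblb (0.73), Sh2b3 (0.53) and Lyn (0.65) rose and Shc1 fell by 0.39 on the log2 scale, with edgeR adjusted p between 0.0215 and 0.0477, but DESeq2 called 0 genes of this list lower. Sh2b3 and Cblb encode restrainers of cytokine signalling, Lyn a Src family kinase and Shc1 an adaptor toward RAS. Of 22 STAT-induced genes and feedback inhibitors, Dusp6 (1.06, adjusted p = 0.00799), Pim1 (0.99, adjusted p = 0.0137), Pias1 (0.54, adjusted p = 0.0260) and Cdkn1a (0.98, adjusted p = 0.0353) were higher in edgeR, and the list's median was 0.46 (0.29 without AG636 replicate 2). Pim1 is a STAT5 target, whereas Dusp6 restrains ERK and Cdkn1a is also a target of p53. Of 11 transcription factors of myeloid receptor promoters, 1 was higher, Gata2 (0.75, edgeR adjusted p = 0.00896), which is also near the 10.3% of all genes tested. Spi1, which encodes PU.1 and was named after its value was seen, had a log2 fold change of 0.67 (edgeR adjusted p = 0.0714).

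**Figure D4:**
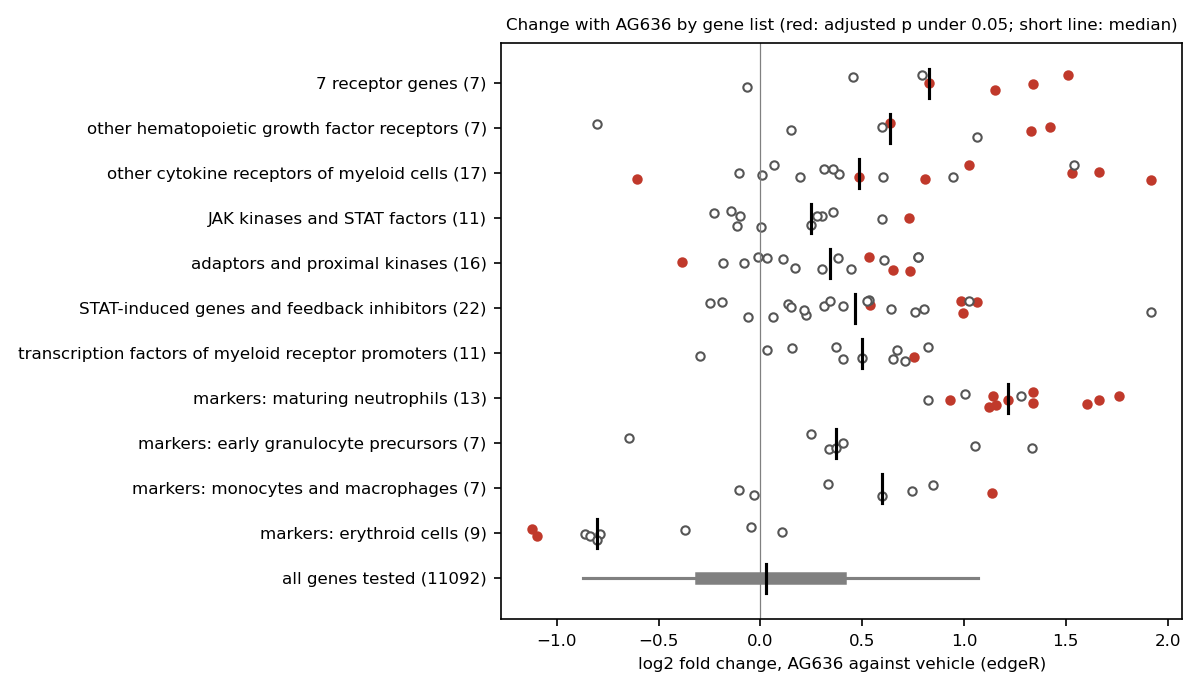
Log2 fold change, AG636 against vehicle (x axis), of every tested gene in the receptor, pathway and main cell type marker lists (rows, number of genes tested in parentheses); red points have an adjusted p under 0.05 in edgeR and short black lines are medians. In the bottom row the thick and thin grey lines span the middle 50% and 90% of all genes tested. The receptor genes (median 0.83) and the maturing neutrophil markers (median 1.21) lie to the right of all genes tested (median 0.03).

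In sorted bulk samples, more cells of a type that expresses a receptor and more receptor RNA per cell cannot be told apart, so marker genes were read in the same samples. Of 13 markers of maturing neutrophils tested, out of 14 listed, 10 were higher, with a median log2 fold change of 1.21, and they were 5 without vehicle replicate 1 or without vehicle replicate 2. The 6 with the lowest p were Ngp (1.67), Cxcr2 (1.12), Ltf (1.16), Camp (1.34), Cd177 (1.76) and Ly6g (1.60). Their list summed to between 1103 and 2492 CPM in vehicle samples and between 3060 and 6132 CPM in AG636 samples, with no overlap, and no marker of the list was at 0. Itgam, which encodes the CD11b that the sort selected against, was at 12.1, 18.3 and 27.0 CPM with vehicle and at 60.1, 31.3 and 41.2 CPM with AG636 (log2 fold change 1.21, edgeR adjusted p = 0.0219). Itgam and the neutrophil markers therefore moved in the same direction as Csf2rb, Csf2rb2, Csf2ra and Il6ra, and their part in the change of these receptor genes was not tested. Csf3r, itself a receptor of the neutrophil lineage, did not pass the test and was at its lowest in AG636 replicate 2. The neutrophil markers were mixed in that sample, with Camp at its highest and Itgam at its lowest among the AG636 samples.

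The marker lists read next had smaller median log2 fold changes than the 1.21 of maturing neutrophils. Medians were 0.37 for early granulocyte precursors, 0.60 for monocytes and macrophages and 0.91 for stem and progenitor cells. The last was above the 0.83 of the receptor genes. Of 7 markers of early granulocyte precursors, 0 passed in edgeR and limma-voom and 1 in DESeq2, with 1 at an unadjusted p under 0.05, and the list summed to 2192 to 4844 CPM with vehicle and 1596 to 5157 CPM with AG636. AG636 replicate 2, the lowest of the 6 samples for Csf3r, was also the lowest for that sum. Mpo made up the largest part of the sum, and most markers of the list were lowest in vehicle replicate 1 instead. Of 7 monocyte and macrophage markers tested out of 11, Ly6c2 was higher (1.13, edgeR adjusted p = 0.0408), and sums were 74.3 to 106 CPM and 119 to 167 CPM. Of 6 stem and progenitor markers tested out of 10, Meis1 (1.01) and Slamf1 (0.80) were higher, with edgeR adjusted p of 0.00795 and 0.0245, and sums were 321 to 482 CPM and 637 to 826 CPM. The part of these markers in the receptor values was not tested.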

How the data were processed

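RNA from 3 vehicle and 3 AG636 samples was compared. Groups and replicate numbers were taken from the labels. The authors deposited counts, the number of reads assigned to each gene, from QuantSeq 3′ libraries read in single 75-base reads. The submitters' processing notes list FastQC, cutadapt 1.9.1, HISAT2 2.0.4, featureCounts and Subread 1.5.0-p3, with build GRCm38 (mm10). The annotation release, use of strand and treatment of multiply mapping reads are not given in the sources used here. The deposited table also gives gene lengths in bases, used only for levels per kilobase. GENCODE M21 gave symbols to 54723 of 54838 identifiers (99.8%), and 98.9% had the same coordinates there. Exons of the members overlapped only genes with 0 counts.

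Group comparisons were run with edgeR 4.0.16 (R 4.3.3, limma 3.58.1). Genes were kept by filterByExpr (minimum count 10, minimum total 15), libraries were scaled by TMM, and the test was edgeR's quasi-likelihood test, with p adjusted by Benjamini-Hochberg over all genes tested and a threshold of 0.05. Intervals are at 95%. Subunit ratios had 0.5 counts added and were compared by exact two-sided permutation tests in scipy 1.17.1. Each comparison was repeated with DESeq2 1.42.0 and limma-voom, with median-of-ratios size factors or unscaled library sizes, without the filter or with a minimum of 10 counts in all samples, with the replicate number as a block, without each sample in turn, at an adjusted p under 0.01 and, for ratios, with 5 counts added. The member genes and the gene lists were chosen with earlier results of these data known. Named genes were the members, of each list the genes past the threshold (at most 6, by p), ligands, Kit, Csf1r and Itgam, and for each member the 3 genes with the highest correlation. One gene that this rule names is not reported here. Il11ra1, Spi1, Mpo, S100a8, S100a9, Cdh5, Lepr and the members' neighbours fall outside the rule and were named after their values were seen.

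Totals were 4634963 to 7906589 counts per sample, so 3 counts correspond to 0.392 to 0.637 CPM. No molecular identifiers are described, so floors and intervals cover counting error only. Replicates differed by more than sampling noise (chi-square per degree of freedom 6.22 to 14.6), and each counted once. The sources describe 3 mice per group but do not say how they were caged or processed. The p-values set the group difference against the spread between these samples. A part of caging or processing in that difference cannot be told apart from treatment. In a test on simulated data, edgeR recovered 65.2% of genes changed by 1 on the log2 scale and 86.1% of those changed by 1.5, with 11 false calls among 10949 genes. The simulation changed only a small part of the genes, all with at least 10 expected counts per sample. In the data 21.3% of genes tested were called, so these rates are not those of the real comparison.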

Additional observations from a re-analysis of the deposited data

How the results depend on the processing

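The log2 fold changes of Csf2rb2, Il6ra, Il3ra and Il6st kept their direction and their side of the 0.05 threshold under all alternatives run. Csf2rb kept its call except without AG636 replicate 3, with values of 0.60 to 1.02 when samples were left out. Csf2ra ranged from 0.76 to 1.47 when samples were left out, was 1.07 in limma-voom and lost its call there, and was 1.12 with a replicate block (edgeR adjusted p = 0.0656). Csf3r was 0.019 with library size alone and -0.31 to 0.38 when samples were left out. With library size alone the median of all genes tested was 0.12 instead of 0.03, so the sign of Csf3r changed with a shift of all genes. At an adjusted p under 0.01 the log2 fold changes of Csf2rb (0.83), Csf2ra (1.15) and Il6ra (1.34) did not pass and 1 member, Csf2rb2, did. Members called higher numbered 2 to 4 when samples were left out.

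Over all genes, edgeR called 1146 higher and 1222 lower, and 1483 and 913 with library size alone. When samples were left out, the counts were 399 to 1074 higher and 452 to 1298 lower, lowest without AG636 replicate 3, and at an adjusted p under 0.01 they were 231 and 325. In the pathway lists 18 genes were higher, which became 34 without a filter, 7 to 25 when samples were left out and 3 at an adjusted p under 0.01. The 2 pathway genes that were lower became 1 with library size alone, 1 with a replicate block, 0 to 1 when samples were left out and 0 at an adjusted p under 0.01. A stricter threshold leaves fewer calls by construction, and otherwise the cause was not tested. Maturing neutrophil markers numbered 5 to 10 when samples were left out and 3 at an adjusted p under 0.01. The ratio difference of Csf2ra to Csf2rb was -0.13 to 0.62 and that of Il3ra to Csf2rb -0.51 to 0.37 when samples were left out.

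Same-numbered vehicle and AG636 samples did not deviate together (correlations -0.06, -0.18 and 0.22), so the numbers were not read as pairs. With the replicate block 914 genes were higher and 1046 lower, and among the members only the call of Csf2ra changed. Not every sample correlated best with its own number. Il3ra and Il6st rest on few reads, 13 to 55 and 34 to 44 counts per sample.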

Other observations

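Genes within 100000 bases of the members were read for their own changes, since the β chain genes are neighbours, 20031 bases apart on chromosome 15. Near that pair, Ncf4, which encodes a subunit of the phagocyte oxidase, had a log2 fold change of 0.38 (edgeR adjusted p = 0.537), Mpst one of -0.40 (edgeR adjusted p = 0.121) and Kctd17 one of 0.88 (edgeR adjusted p = 0.124), so of the tested genes of this stretch only the receptor genes passed the threshold. Near Csf2ra, Zfp950 was higher (0.78, edgeR adjusted p = 0.0325). Near Csf3r, Mrps15, a mitochondrial ribosomal protein gene that lies 2485 bases away, fell by 0.50 on the log2 scale (edgeR adjusted p = 0.0241), and near Il6ra, Hax1 fell by 0.59 (edgeR adjusted p = 0.0304). No gene was tested within that distance of Il3ra or Il6st.

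Markers of other lineages gave a mixed picture in the same samples. All 9 erythroid markers were tested, with a median log2 fold change of -0.80 (-0.44 without vehicle replicate 1), and Klf1, which encodes an erythroid transcription factor, was among those that were lower (-1.10, edgeR adjusted p = 0.0238). Of 9 markers of mast cells, basophils and eosinophils, Gata2, Il5ra and Cpa3 were higher and Epx, an eosinophil granule peroxidase, was lower (-2.27, edgeR adjusted p = 0.0248). Il5ra, the α chain gene for IL-5, was thus higher in samples in which Epx was lower, and it was also in the receptor lists. In DESeq2 1 of these 9 was higher and 0 lower. Of B cell markers 3 of 8 were tested, of T and NK cell markers 2 of 10 and of endothelial and stromal markers 1 of 8, and 0 of these passed in edgeR, DESeq2 or limma-voom or had an unadjusted p under 0.05. Cdh5 and Lepr had 0 counts in all samples.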
